A study of Mus musculus with 6 samples.

Results

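The 34 genes described here encode contractile, calcium-handling and energy proteins of skeletal muscle, and were measured as an unlabelled part of whole-tumour RNA. They were chosen by gene symbol and not by a threshold on measured values, but with earlier results of these data known. All 34 were found among the 17352 genes of the deposited table. They were sorted here into 14 genes of fast-twitch fibres, 6 of slow-twitch fibres and 14 of all fibres. The all-fibre list holds Mybpc1, Mb and Car3, which are also linked to slow or oxidative fibres. The tissue was a subcutaneous tumour of Panc02, cultured pancreatic cancer cells of mouse origin, taken 4 weeks after implantation. In the first group, 3 libraries came from hosts of the genotype written Anxa1ΔMɸ, a deficiency of annexin A1 in myeloid cells, and in the second group, 3 came from Anxa1flox/flox hosts, labelled wild type. They are called deficient (label numbers 3, 4 and 5) and wild type (2, 3 and 5). All 6 labels also carry the letters HFD, which are not defined in the sources used here. The Cre driver, the age of the mice and any pooling of animals are likewise not stated there. A deletion confined to myeloid cells leaves Anxa1 in every other cell of the tumour, and the labels do not say that the Panc02 cells were altered. Where nothing states that libraries came from separate animals, p-values measure the spread between these samples, which may be technical.

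Skeletal muscle contracts when calcium released from the sarcoplasmic reticulum frees actin, through troponin, to bind myosin. Fast and slow fibres build the same machine from different gene copies: each fibre type has its own myosin heavy chain, myosin light chains, and troponins T, I and C, and fast fibres also have their own calcium pump and alpha-actinin. Mouse skin carries a thin sheet of striated muscle, the panniculus carnosus, above the space in which subcutaneous tumours are implanted. Neither this muscle nor any other is named in the labels.

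The stretch before the start of 4 members is shown because their levels moved together or apart across the tumours: Acta1 (all fibres), Mylpf and Myh4 (fast) and Myh7 (slow). Each sequence is the 250 bases before the annotated start, read on the gene's strand from RefSeq on build GRCm38.p6. Capitals mark letters that match a searched motif.
Acta1 (chr8:123894776-123895025, minus strand): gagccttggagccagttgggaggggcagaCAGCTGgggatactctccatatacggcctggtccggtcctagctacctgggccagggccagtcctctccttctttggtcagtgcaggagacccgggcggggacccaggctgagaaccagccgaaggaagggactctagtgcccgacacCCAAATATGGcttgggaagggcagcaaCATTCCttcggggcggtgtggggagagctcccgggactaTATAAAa
Mylpf (chr7:127211358-127211607, plus strand): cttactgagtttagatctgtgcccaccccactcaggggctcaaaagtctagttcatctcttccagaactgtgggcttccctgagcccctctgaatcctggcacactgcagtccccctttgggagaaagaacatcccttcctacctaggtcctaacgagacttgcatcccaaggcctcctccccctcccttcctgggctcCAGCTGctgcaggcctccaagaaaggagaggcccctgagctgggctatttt
Myh4 (chr11:67237562-67237811, plus strand): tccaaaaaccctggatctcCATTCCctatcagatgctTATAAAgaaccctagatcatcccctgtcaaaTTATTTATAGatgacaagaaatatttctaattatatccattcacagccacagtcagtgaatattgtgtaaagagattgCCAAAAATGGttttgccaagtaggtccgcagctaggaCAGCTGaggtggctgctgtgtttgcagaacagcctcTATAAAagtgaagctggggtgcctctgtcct
Myh7 (chr14:54994627-54994876, minus strand): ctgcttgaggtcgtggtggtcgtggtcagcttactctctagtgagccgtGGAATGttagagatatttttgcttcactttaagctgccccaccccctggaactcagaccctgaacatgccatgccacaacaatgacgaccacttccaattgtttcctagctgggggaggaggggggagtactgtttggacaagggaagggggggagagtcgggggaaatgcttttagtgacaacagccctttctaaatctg
The motifs were the E-box CAGCTG, a core motif of the myogenic factors, the MCAT core GGAATG, the CArG box of serum response factor and the MEF2 site, each on both strands, and TATAAA on the gene's strand. Promoters were listed for 26 of the 34 members and for 27025 genes in all. CAGCTG lay in 12 of the 26 member promoters (46.2%) and in 14.7% of all genes' promoters, and GGAATG in 9 (34.6%) and 14.4%. The CArG box lay in 3 members (11.5%) against 1.62% of all genes, the MEF2 site in 5 (19.2%) against 3.42%, and TATAAA in 4 (15.4%) against 8.94%. Acta1 held CAGCTG, the CArG box, GGAATG and TATAAA, and Myh4 held these and a MEF2 site. TATAAA can lie within a MEF2 site or a CArG box, and a match describes the letters only.

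The libraries were alike in depth and differed in a few known ways. The spacing of low values gave about 37500000 to 41100000 fragments per library, and 15671 to 16035 genes were above 0. Values are FPKM, fragments scaled to gene length and library depth, so levels may be compared between genes of different length. Anxa1, the targeted gene, had 249.9, 330.2 and 290.5 FPKM in deficient 3, 4 and 5 and 341.8, 354.4 and 394.2 FPKM in wild type 2, 3 and 5 (limma log2 fold change -0.33, SE 0.12, adjusted p = 0.268). The epithelial keratins Krt8 and Krt18, which mark the labelled pancreatic cancer cells, lay between 197.7 and 266.4 FPKM in every library. Others of the 11 epithelial markers varied: Epcam and Cldn4 were among 4 with every deficient library above every wild-type one (0.255 to 2.81 FPKM for Cldn4 against 0). The share over the whole table was 10.8%. For 1 of the 11 every deficient library was below every wild-type one, where the share over the whole table was 7.03%. Msln was at 2.36 FPKM in deficient 5 and at 23.2 to 32.6 elsewhere. The part of tumour cell content in the results was not tested. The Y-linked helicase Ddx3y had 0 to 0.126 FPKM in deficient and 3.13 to 6.79 FPKM in wild-type tumours (limma log2 fold change -2.47, adjusted p = 0.009). Host sex is not in the labels, and its part in any difference between the groups cannot be told apart from that of genotype. Of 12257 tested genes, 120 were higher (0.979%) and 28 lower (0.228%) in the deficient tumours by limma at an adjusted p under 0.05.

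Most muscle genes differed more between tumours of the same group than between the groups. Wild type 3 and deficient 4, a tumour of each genotype, held the highest levels, wild type 2 often came next, and deficient 3, deficient 5 and wild type 5 were low. Wild type 3 was the highest library for 28 of the 34 members, where the share over the whole table was 15%. Wild type 3 and deficient 4 were the 2 highest libraries for 24 of the 34 members, against 4.28% of all genes. This order was seen in the data and is a description. In bulk RNA, fewer muscle cells and less RNA per muscle cell cannot be told apart.

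**Figure D1:**
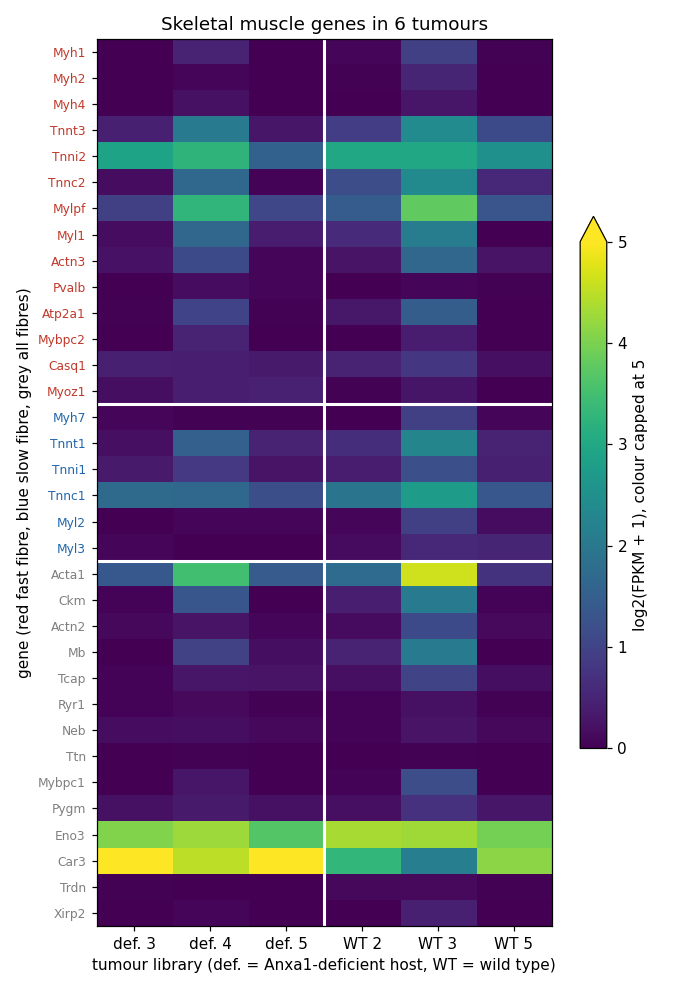
Level of the 34 muscle genes (rows) in the 6 tumour libraries (columns), as log2(FPKM + 1) with the colour capped at 5. Deficient 4 and wild type 3 stand out in most rows, Eno3 and Tnni2 are present in all libraries, and Car3 is highest in the deficient tumours.

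Acta1, the actin of skeletal muscle thin filaments, was the most abundant gene that followed this order. It had 1.61, 10.2 and 1.72 FPKM in deficient 3, 4 and 5 and 2.34, 23.9 and 0.654 FPKM in wild type 2, 3 and 5. The wild-type group thus held both the highest and the lowest library, and the deficient libraries lay between them. Ckm, the muscle creatine kinase that buffers ATP, had 0.0377, 1.53 and 0 FPKM in deficient 3, 4 and 5 and 0.340, 3.11 and 0.0363 FPKM in wild type 2, 3 and 5. Mb, the oxygen-binding myoglobin of oxidative fibres, was listed at 0, 0.985 and 0.143 FPKM in deficient 3, 4 and 5 and at 0.387, 3.21 and 0 in wild type 2, 3 and 5. Both genes were near 0 in libraries of each genotype. Their groups overlapped in every case.

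Most fast-fibre genes were higher in deficient 4 and wild type 3 than in the other libraries, 11 of the 14 having these as their 2 highest. Mylpf, the regulatory light chain of fast myosin, had 0.925, 8.77 and 1.08 FPKM in deficient 3, 4 and 5 and 1.76, 12.8 and 1.495 FPKM in wild type 2, 3 and 5. Tnnt3, the fast troponin T that anchors the troponin complex to tropomyosin, had 0.365, 3.21 and 0.227 FPKM in the deficient and 0.866, 4.31 and 1.17 FPKM in the wild-type tumours, in the same order of libraries. In these genes deficient 4 stood above wild type 2 and wild type 5, while deficient 3 and deficient 5 stood below them.

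Tnnc2, the calcium-binding troponin C of fast fibres, had 0.116, 2.21 and 0.0383 FPKM in deficient 3, 4 and 5 and 1.28, 4.19 and 0.482 FPKM in wild type 2, 3 and 5. Myl1, the essential light chain of fast myosin, had 0.118, 2.16 and 0.303 FPKM in the deficient group and 0.532, 3.32 and 0.00947 FPKM in the wild-type group. Atp2a1, the fast-fibre pump that returns calcium to the sarcoplasmic reticulum, had 0.0233, 1.02 and 0.0232 FPKM in the deficient group and 0.258, 1.79 and 0.00747 FPKM in the wild-type group. The lowest library of Myl1 and Atp2a1 was wild type 5, and that of Tnnc2 was deficient 5. Actn3, the alpha-actinin of fast Z-discs, repeated the order of Tnnt3, with 0.185, 1.17 and 0.0552 FPKM in deficient 3, 4 and 5 and 0.193, 2.13 and 0.196 FPKM in wild type 2, 3 and 5. Mybpc2, the fast myosin-binding protein C, was higher in deficient 4 (0.390 FPKM) than in wild type 3 (0.319 FPKM), at 0.00699 FPKM in wild type 2 and at 0 in the other libraries.

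The slow-fibre genes did not share a single order of libraries. Tnnt1 and Tnni1, the slow troponins T and I, followed the fast genes: Tnnt1 had 0.155, 1.91 and 0.412 FPKM in deficient 3, 4 and 5 and 0.565, 3.81 and 0.399 FPKM in wild type 2, 3 and 5. Tnni1 had 0.292, 0.789 and 0.200 FPKM in the deficient and 0.305, 1.33 and 0.358 FPKM in the wild-type tumours. Myh7, the slow myosin heavy chain, was instead high in wild type 3 alone, with 0.0417, 0.0152 and 0.0207 FPKM in deficient 3, 4 and 5 and 0.0119, 0.931 and 0.0522 FPKM in wild type 2, 3 and 5. Whole fragments recovered from the spacing of its values numbered 232 in wild type 3 and 3 to 13 in each of the other libraries, deficient 4 having 4.

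Myl2, the slow regulatory light chain, showed the same contrast, with 0, 0.0494 and 0.0646 FPKM in deficient 3, 4 and 5 and 0.0514, 0.918 and 0.125 FPKM in wild type 2, 3 and 5. Myl3, the slow essential light chain, was listed at 0.0587, 0 and 0 FPKM in deficient 3, 4 and 5 and at 0.111, 0.481 and 0.424 FPKM in wild type 2, 3 and 5. Every deficient library was below every wild-type library for Myl3, although the recovered fragments numbered only 2, 0 and 0 against 4, 17 and 15. Tnnc1, the troponin C of slow and heart muscle, was above 1 FPKM in all libraries, at 2.30, 2.23 and 1.29 FPKM in deficient 3, 4 and 5 and at 2.81, 5.81 and 1.57 FPKM in wild type 2, 3 and 5.

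Adult myosin heavy chains gave the clearest view of fibre type, because each fibre mainly uses a single gene of the family. Summed over Myh1 (type IIx), Myh2 (IIa), Myh4 (IIb) and Myh7 (slow), the level was 0.644 FPKM in deficient 4 and 2.52 FPKM in wild type 3, against 0.0207 to 0.0830 FPKM in the other libraries. In deficient 4, Myh1 made up 61.4% of this sum, Myh4 26.3%, Myh2 9.95% and Myh7 2.36%. In wild type 3, Myh7 made up 37.0%, Myh1 36.6%, Myh2 17.1% and Myh4 9.31%. Adult myosin RNA in deficient 4 was thus mostly of the fast genes and in wild type 3 a mixture, although the slow troponins Tnnt1 and Tnni1 stood in deficient 4 at 50.2% and 59.5% of their wild type 3 level. Shares in the other libraries rest on too few fragments to be read.

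**Figure D2:**
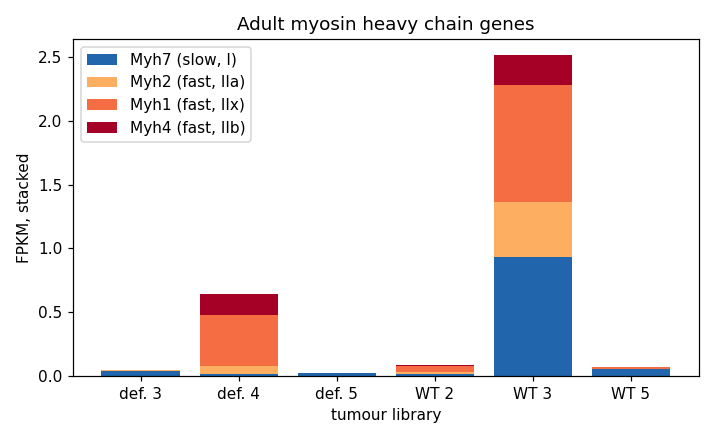
FPKM of the 4 adult myosin heavy chain genes, stacked, in each tumour library. The sum is 2.52 in wild type 3, where the slow gene Myh7 contributes 37.0%, and 0.644 in deficient 4, where it contributes 2.36%.

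Single fast myosin genes were almost absent outside these libraries. Myh4 had 0, 0.169 and 0 FPKM in deficient 3, 4 and 5 and 0.00419, 0.234 and 0 FPKM in wild type 2, 3 and 5, which is 42 fragments in deficient 4 and 55 in wild type 3. Myh1 had 0, 0.395 and 0 FPKM in the deficient group and 0.0503, 0.920 and 0.0170 FPKM in the wild-type group. Myh2, the myosin of fast oxidative fibres, had 0.00439, 0.0640 and 0 FPKM in the deficient group and 0.0167, 0.431 and 0 FPKM in the wild-type group. Myh2 thus stood lower in deficient 4, relative to wild type 3, than Myh1 and Myh4 did. Myh2, Myh1 and Myh4 are neighbours in the genome, and windows of 150 bases, the read length, occurring in another gene's transcripts made up 1.75%, 2.37% and 0.511% of their own. For Myh7 the share was 3.64%, all with its heart paralog Myh6, and for Myl1 it was 0.892%. No such window was found for the other 29 members.

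Set side by side, deficient 4 held a larger part of the wild type 3 level for fast than for slow genes. For the 14 fast genes the level in deficient 4 was 14.9% to 237% of that in wild type 3, with a median of 66.9%. For the 6 slow genes it was 0% to 59.5%, with a median of 21.9%. The lowest fast gene was Myh2 (14.9%) and the lowest slow genes were Myl3 (0%), Myh7 (1.63%) and Myl2 (5.38%). For the 14 all-fibre genes it was 11.2% to 635% with a median of 43.6%. Among them Ckm stood at 49.3%, Ttn at 57.9%, Neb at 65.1% and Eno3 at 99.1%, while Mybpc1, the slow-type myosin-binding protein C, stood at 18.1%, Actn2, the Z-disc alpha-actinin of all fibres, at 17.6% and Mb at 30.7%. These values compare a single tumour of each genotype and have no replicate check.

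**Figure D3:**
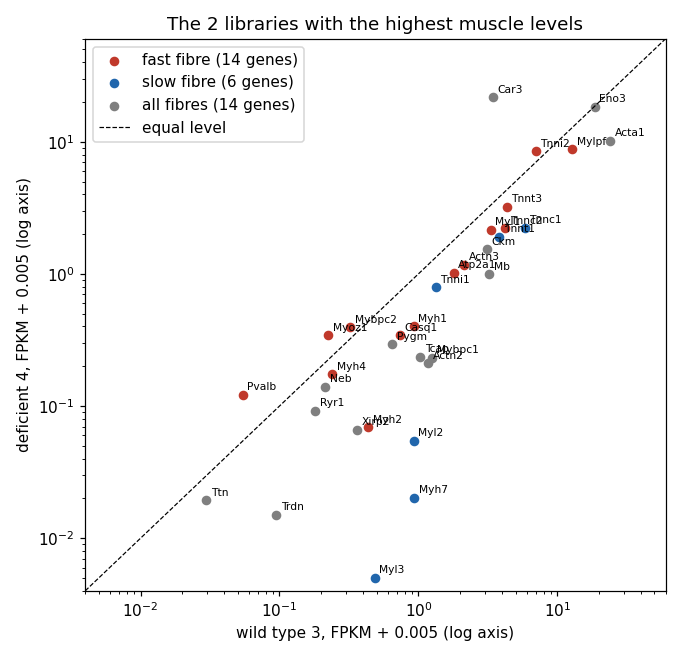
FPKM of each muscle gene in wild type 3 (horizontal) and deficient 4 (vertical), both with 0.005 added and on log axes; the dashed line marks equal levels. Myh7, Myl2 and Myl3 lie far below the line, most fast genes lie close under it, and Car3 lies well above it.

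Averaged over genes, the fast list exceeded the slow list mainly in deficient 4. The mean log2(FPKM + 1) of the fast genes minus that of the slow genes stood at -0.01 for deficient 3, at 0.47 for deficient 4 and at -0.04 for deficient 5. Wild type 2 stood at 0.06, wild type 3 at -0.02 and wild type 5 at -0.07. As group means this difference was 0.14 ± 0.29 (SD, n = 3) in the deficient group and -0.01 ± 0.07 in wild-type tumours, so the groups overlapped. The deficient group had a fast mean of 0.62 ± 0.47 and a slow mean of 0.48 ± 0.19. The wild-type group had a fast mean of 0.82 ± 0.54 and a slow mean of 0.83 ± 0.54. The gap between the groups in the fast minus slow difference was 0.15. It was -0.01 without deficient 4, -0.02 over the members that passed the filter on low values, -0.16 with Mybpc1, Mb and Car3 among the slow genes and 0.61 with a pseudocount of 0.1, so neither its size nor its sign was stable.

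**Figure D4:**
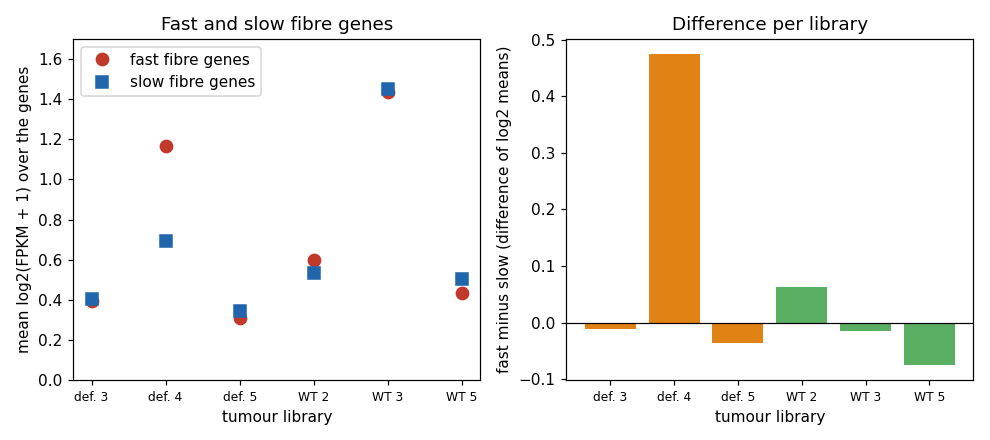
Left, mean log2(FPKM + 1) of the 14 fast-fibre genes (red circles) and the 6 slow-fibre genes (blue squares) in each library; right, fast minus slow. The means coincide in wild type 3 and differ by 0.47 in deficient 4.

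The calcium channel gene Ryr1 and the titin gene Ttn were also led by wild type 3 and deficient 4, at low levels. Ryr1, the calcium release channel, had 0.0277, 0.0869 and 0.0224 FPKM in deficient 3, 4 and 5 and 0.0328, 0.175 and 0.0250 FPKM in wild type 2, 3 and 5. Ttn, the molecular spring titin, had 0.00136, 0.0143 and 0.000678 FPKM in the deficient group and 0.00776, 0.0247 and 0.0103 FPKM in the wild-type group. Because this transcript is very long, these levels still rest on 6, 69 and 3 fragments in the deficient group and 36, 113 and 47 in wild-type tumours. Both genes were highest in wild type 3 and second in deficient 4, but for Ttn wild type 5 came next, above wild type 2.

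Tcap, which caps titin at the Z-disc, ranged from 0.0282 to 1.03 FPKM, Xirp2, an actin-binding repeat protein, from 0 to 0.359, both highest in wild type 3. Actn2 had 0.0812, 0.206 and 0.0628 FPKM in deficient 3, 4 and 5 and 0.111, 1.17 and 0.0955 FPKM in wild type 2, 3 and 5. Mybpc1 was at 0, 0.227 and 0 FPKM in deficient 3, 4 and 5 and at 0.0364, 1.26 and 0.00615 FPKM in wild type 2, 3 and 5. In both genes wild type 3 stood well above deficient 4, the second library. Pygm, the muscle glycogen phosphorylase, ranged from 0.150 to 0.645 FPKM and Neb, the thin-filament ruler nebulin, from 0.0289 to 0.208. Both were also highest in wild type 3 and second in deficient 4, and like Tcap and Actn2 they remained above 0 in all libraries. For Neb, deficient 4 (0.136 FPKM) was close to deficient 3 (0.125 FPKM).

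A few members did not follow the order, or varied within a narrower range. Eno3, the muscle beta-enolase of glycolysis, had 15.6, 18.3 and 11.7 FPKM in deficient 3, 4 and 5 and 19.2, 18.5 and 14.6 FPKM in wild type 2, 3 and 5, a narrow range next to that of Ckm. Tnni2, the fast troponin I, had 6.49, 8.48 and 1.94 FPKM in the deficient group and 6.86, 6.99 and 4.68 FPKM in the wild-type group, so that deficient 3 was close to wild type 3 although Tnnt3 was not. Both genes were present in tumours with almost no myosin heavy chain, and the cells they came from were not tested.

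Casq1, the calcium store calsequestrin, lay between 0.151 and 0.727 FPKM, highest in wild type 3 and next in wild type 2. Pvalb, the calcium buffer parvalbumin of fast fibres, had 0, 0.117 and 0.0509 FPKM in deficient 3, 4 and 5 and 0, 0.0493 and 0.0246 FPKM in wild type 2, 3 and 5, which is at most 5 fragments. Myoz1, a fast-fibre Z-disc protein, had 0.144, 0.339 and 0.369 FPKM in deficient 3, 4 and 5 and 0.0196, 0.219 and 0 FPKM in wild type 2, 3 and 5. Trdn, which ties calsequestrin to the release channel, had 0.0165, 0.0100 and 0.0109 FPKM in the deficient group and 0.0730, 0.0900 and 0.0265 FPKM in the wild-type group. For Trdn all deficient libraries were below all wild-type ones, on 2 to 3 against 5 to 17 fragments.

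Car3, a carbonic anhydrase abundant in slow muscle and in fat cells, ran opposite to most other muscle genes. It had 57.8, 21.7 and 116.4 FPKM in deficient 3, 4 and 5 and 8.86, 3.41 and 16.5 FPKM in wild type 2, 3 and 5. All deficient libraries were above all wild-type ones, and the lowest library was wild type 3, the highest for most muscle genes. The group means were 65.3 ± 47.8 and 9.59 ± 6.57 FPKM (SD, n = 3), and the log2 fold change was 2.56 (SE 0.65, limma adjusted p = 0.133), which misses the threshold. Leaving out 1 library at a time gave 1.999 (without deficient 5) to 3.19, and only without deficient 4 did it pass (3.19, limma adjusted p = 0.0389). In the other 5 cases the limma adjusted p was 0.132 to 0.404. Car3 had a correlation of -0.74 with the mean of the other members over the 6 libraries, as a description. Its order of libraries was also that of the adipocyte genes Cfd, with 51.4, 32.6 and 148.1 FPKM in deficient 3, 4 and 5 and 9.42, 0.390 and 11.2 FPKM in wild type 2, 3 and 5, and Cidec. Of the 17 adipocyte markers, 16 are other genes than Car3. Of these, 14 had a higher mean log2 level in the deficient group, as had 9443 of all 17352 genes. For 5 of the 16 the groups did not overlap, where the share over the whole table with all deficient libraries higher was 10.8%. By limma 0 of the 14 tested genes of the list, Car3 included, were called. At an unadjusted p under 0.05, 10 of them were higher, beside 15.1% of all tested genes in either direction. The summed level of the 16 genes was 160.8 to 575.6 FPKM in the deficient group and 69.2 to 180.1 FPKM in the wild-type group. Ucp1, a brown-fat marker, was at 0 in 5 libraries and at 0.0154 FPKM in wild type 2. The part of adipocyte RNA in the Car3 values was not tested.

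The comparison by genotype asked whether muscle genes differed between tumours of deficient and wild-type hosts. By limma on log2(FPKM + 1), 0 of the 15 members that passed the filter of a mean FPKM of 0.5 were called in either direction at an adjusted p under 0.05, beside 0.979% of all tested genes called higher and 0.228% lower. At an unadjusted p under 0.05 stood 1 of the 15, Car3, beside 15.1% of all tested genes. With no filter all 34 were tested and again 0 were called, where 0.0576% of all genes were called higher and 0.0461% lower, and 4 of the 34 had an unadjusted p under 0.05, beside 13.2% of all genes. The intervals were wide: the 95% interval of the log2 fold change was -2.55 to 2.02 for Acta1, -2.29 to 1.44 for Mylpf and -1.65 to 0.91 for Ckm. For these genes, differences of the size that the intervals span were not detectable with these libraries.

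**Figure D5:**
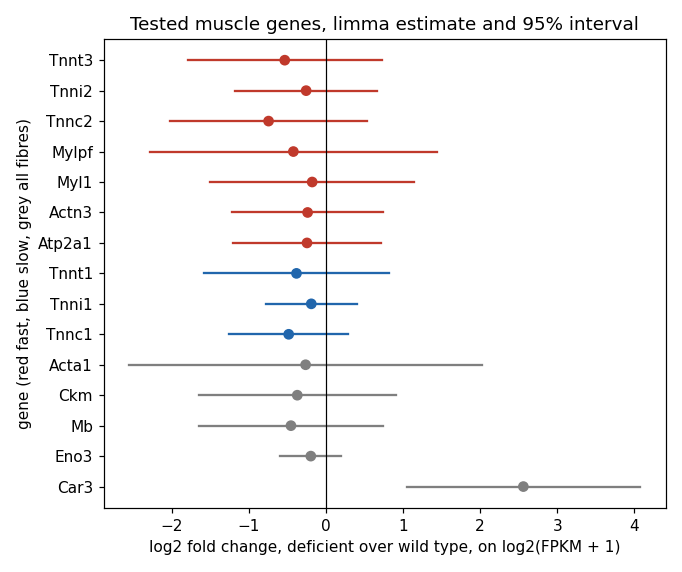
Log2 fold change of the 15 tested muscle genes, deficient over wild type, with limma's 95% interval. The intervals of 14 genes include 0 and reach -2.55 to 2.02 for Acta1, and Car3 stands at 2.56.

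Of the fast genes, Tnnc2 had a log2 fold change of -0.75 (SE 0.55, limma adjusted p = 0.567), Tnnt3 -0.54 (SE 0.54, adjusted p = 0.688) and Mylpf -0.42 (SE 0.80, adjusted p = 0.854). Of the slow genes Tnnc1 stood at -0.48 (SE 0.33, limma adjusted p = 0.536), Tnnt1 at -0.38 and Tnni1 at -0.19. Acta1 stood at -0.26 (SE 0.99, limma adjusted p = 0.929), Ckm at -0.37, Mb at -0.45 and Eno3 at -0.20. Of all 34 members, tested or not, 29 had a lower mean log2 level in deficient tumours. The other 5, Car3, Myoz1, Pvalb, Mybpc2 and Neb, had a higher one. Over the whole table, 7909 of 17352 genes had a lower mean level in deficient tumours. The median difference of the 34 members was -0.22, beside 0.01 over all genes of the table. With a library left out this median was -0.38 (without wild type 5) to 0.06 (without wild type 3), and it was -0.11 without deficient 3, -0.08 without deficient 5, -0.35 without deficient 4 and -0.33 without wild type 2. With a pseudocount of 0.1 it was -0.57. Groups did not overlap for Car3 on the higher side, where the share over the whole table was 10.8%, and for Myl3 and Trdn on the lower side, where it was 7.03%.

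Other genes of the muscle programme, from lists of related genes, gave 0 calls among the tested members of each list by limma. Wild type 3 and deficient 4 were the 2 highest libraries for 24 of 45 further genes of the sarcomere and Z-disc, 10 of 32 genes of excitation-contraction coupling, 6 of 29 genes of muscle metabolism and 11 of 23 myogenic regulators and regeneration genes. The share over the whole table was 4.28%. At an unadjusted p under 0.05 these lists held 1 higher and 3 lower of 14 tested genes, 1 and 0 of 9, 2 and 0 of 13, and 0 and 3 of 7, in the same order, beside 15.1% of all tested genes in either direction. A list of fibre type regulators, which shares genes with these lists, had the same 2 highest libraries for 3 of 18 genes. It held 1 higher and 2 lower of 11 tested genes at that unadjusted p. Klhl41, a stabiliser of nebulin, had 0.0526, 0.317 and 0.0732 FPKM in deficient 3, 4 and 5 and 0.0299, 0.830 and 0.0506 FPKM in wild type 2, 3 and 5. Myoz2, a Z-disc protein of slow fibres, had 0, 0.0531 and 0 FPKM in the deficient group and 0.111, 0.822 and 0.280 FPKM in the wild-type group. Myoz2 therefore set wild type 3 apart from deficient 4 as Myh7 did. These genes were picked from the lists after their values were seen.

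Among the most abundant genes of these lists were several also used outside muscle. Tpm1, a tropomyosin, lay between 107.7 and 146.5 FPKM, Tpm3 between 56.6 and 70.2, Atp2a2, the calcium pump of slow fibres and of most other cells, between 43.6 and 52.7 and Pgk1, an enzyme of glycolysis, between 281.3 and 562.3 FPKM. By contrast the myogenic factor Myod1 had 0.0144, 0.105 and 0 FPKM in deficient 3, 4 and 5 and 0, 0.291 and 0 FPKM in wild type 2, 3 and 5. Myf6, a myogenic factor of mature fibres, was at 0.0777 FPKM in deficient 4, at 0.287 in wild type 3 and at 0 elsewhere. Myh3, the embryonic myosin heavy chain, was at 0.193 FPKM in deficient 4, at 0.449 in wild type 3 and at 0.00438 to 0.0710 in the other libraries. Myod1, Myf6 and Myh3 were named after their values were seen, as were the next genes of their list. Of its more abundant genes, Tead4 (0.639 to 2.98 FPKM) was also highest in wild type 3 and second in deficient 4. Cdh15 (1.16 to 6.55 FPKM) and Six4 (9.42 to 18.1 FPKM) were instead lowest in deficient 4, and Ncam1 (1.62 to 5.61 FPKM) was highest in wild type 5. Chrnd, Chrne and Chrng, subunits of the acetylcholine receptor of the nerve-muscle junction also singled out after their values were seen, were highest in wild type 3 and second in deficient 4, all under 0.174 FPKM. The more abundant subunits did not have this order: Chrna1 (0.522 to 1.10 FPKM) was highest in deficient 3 and Chrnb1 (4.13 to 6.26 FPKM) in wild type 2.

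Among tested genes outside the 34, Des had the only name from the muscle lists in the 10 whose pattern was closest to the members' mean log2 level. Des encodes desmin, the intermediate filament that links Z-discs, and had 0.584, 4.02 and 1.21 FPKM in deficient 3, 4 and 5 and 0.892, 7.12 and 0.872 FPKM in wild type 2, 3 and 5. Its Pearson correlation with the mean was 0.98 over 6 libraries. The others were Flt4, Tuft1, Slc30a4, Fermt2, Plpbp, Tcte3, Slc19a2, Bok and Ereg, with correlations of 0.96 to 0.995 given as descriptions. Without deficient 4 and wild type 3 the correlations ran from -0.55 to 0.98, and that of Des was -0.11. Most of these genes varied little: Fermt2, an integrin activator, lay between 31.5 and 41.2 FPKM.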

How the data were processed

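Whole-tumour RNA was extracted with TRIzol and sequenced as 150-base paired-end reads on an Illumina NovaSeq, per the labels' protocols. HISAT2, HTSeq and R 3.2.0 appear in the submitters' processing notes, with no roles; for the genome build nothing was given in the sources used here. The authors deposited FPKM values, fragments normalized to gene length and depth, for 17352 genes; no header names the unit, which was read from the values, as those of a gene are whole multiples of a step that differs between genes. Whole fragments were recovered from these steps (tolerance 0.001) for all 13949 genes with a mean FPKM under 20 or in the muscle list, up to a common factor per gene; 280 genes with matching GENCODE M21 exon lengths set the total depth. The 2 groups were compared on log2(FPKM + 1) by limma 3.58.1 (R 4.3.3; variance trend, without a block), for the 12257 genes with a mean FPKM of at least 0.5, with Benjamini-Hochberg adjustment over all of them; tests are two-sided. Fold changes on this scale understate changes of low genes. The fit was also run on simulated data with independently drawn genes and a shift added to genes of higher level. That run does not show how the fit performs on low genes that move together. Members, lists and alternatives were chosen with earlier results of these data known. Per-library values are given for called members, myosins, fast and slow paralogs, Acta1, Ckm, Mb, Car3, Atp2a1, Pvalb, Ttn and the extremes of fold change; the rule for other genes covers Anxa1, called or most abundant list genes and the 10 most alike genes, of which several are given as ranges or by correlation. Further genes, such as Klhl41, Myoz2, Myod1, Cfd, Thbs4 and the epithelial markers, were chosen after their values were seen. No batch is labelled.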

Additional observations from a re-analysis of the deposited data

How the results depend on the processing

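The count of called muscle genes was 0 in each direction in the planned fits with other pseudocounts, filters, scalings or variance model, and 0 to 1 higher and 0 lower when each library was left out in turn, the 1 being Car3 without deficient 4. Over all genes, the 120 higher and 28 lower calls became 10 and 8 with no filter, 74 higher with quantile normalization, and 7 to 270 higher and 3 to 66 lower with a library left out. With a replicate block the calls were 633 and 354, with 1 muscle gene higher (Car3, log2 fold change 3.24) and 2 lower (Tnnt3 at -1.39 and Tnnc2 at -1.37). Only label numbers 3 and 5 are shared by the groups, so wild type 2 and deficient 4 do not bear on this genotype estimate. The block fit thus loses deficient 4, a library with high muscle levels, but keeps wild type 3. Nothing states that the numbers mark pairs, and they are not taken as pairs. Deviations of same-numbered libraries correlated at -0.09 and -0.01, and of differently numbered ones at -0.21 to 0.22. These few correlations, around means of 3 libraries, cannot decide whether the numbers mark pairs. Without deficient 4 and wild type 3, an alternative chosen after seeing the data, 64 higher and 10 lower genes were called, 0 of them members, and Acta1 was at 0.18. The fast minus slow gap was 0.61 with a pseudocount of 0.1 and -0.16 with Mybpc1, Mb and Car3 among the slow genes (0.16 with Mybpc1 and Mb only, an alternative also chosen after seeing the data), and -0.02 over tested members alone. The slow share of adult myosin in the summed deficient libraries was 10.9%, and 5.41% to 93.4% with a library left out, the highest without deficient 4, where few fragments remain; without both high libraries it was 93.4%. Signs turned with a library left out, mostly wild type 3, for Acta1 (-1.09 to 0.87), Mylpf (-1.19 to 0.37), Myl1 (-0.64 to 0.42), Actn3 (-0.56 to 0.22), Atp2a1 (-0.57 to 0.19), Tnnt1 (-0.78 to 0.18), Tnni1 (-0.37 to 0.077), Ckm (-0.81 to 0.23), Mb (-0.88 to 0.16) and Tnni2 (-0.60 to 0.25); the cause was not tested. Scalings moved the median of all genes by under 0.1.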

Other observations

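Tissues that border skeletal muscle under the skin were read from lists of their own. Thbs4, a thrombospondin of tendon and muscle, had 1.04, 10.2 and 0.589 FPKM in deficient 3, 4 and 5 and 4.56, 15.1 and 6.55 FPKM in wild type 2, 3 and 5, and was picked after its values were seen. Wild type 3 and deficient 4 were again its 2 highest libraries, and it did not pass (log2 fold change -1.41, SE 0.72, limma adjusted p = 0.420). Tnmd, a defining tendon gene, was at 0 in 5 libraries and at 0.0776 FPKM in wild type 5. Wild type 3 and deficient 4 were the 2 highest libraries for 3 of 11 tendon and bone genes (27.3%), 0 of 10 peripheral nerve markers and 0 of 12 keratinocyte and skin markers, beside 4.28% of all genes.

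The same pattern held for 2 of 11 heart genes (18.2%) and 2 of 13 smooth muscle genes (15.4%), with no test. These shares were above the 4.28% of all genes and below the 70.6% of the 34 muscle genes. The 2 smooth muscle genes were Des and Ldb3, both also counted in the sarcomere and Z-disc list. None of the other genes of the smooth muscle list had this pattern. Tnnt2, the heart troponin T, had 3.54, 7.94 and 2.81 FPKM in deficient 3, 4 and 5 and 5.75, 6.58 and 3.14 FPKM in wild type 2, 3 and 5. Acta2, the smooth muscle actin, was highest in deficient 5 at 308.5 FPKM and lay between 139.7 and 224.4 FPKM in the other libraries.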
